A study of Mus musculus with 16 samples.

Results

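The change that stimulation made in blood neutrophils lacking the lymphotoxin β receptor was set, gene by gene, against the change it made in control neutrophils. All 16 of the 16 libraries of the series were used. There were 3 unstimulated and 4 stimulated libraries of Cre-negative Ltbr fl/fl littermates (Ctrl), and 4 unstimulated and 5 stimulated libraries of Ltbr fl/fl x Mrp8-Cre mice (LTβRΔN). The mice were 8 weeks old and of the C57/Bl6 strain, and the neutrophils came from blood by magnetic negative selection. All 4 groups carry the floxed Ltbr allele, and only LTβRΔN mice carry the transgene, in which the S100a8 (Mrp8) promoter drives Cre together with GFP, so that Cre and GFP go with the genotype. The treatment protocol gives 2 h of culture in cytokines (100 ng/ml of TNF, 100 ng/ml of GM-CSF and 50 ng/ml of IL-6), to which soluble LIGHT was added at 500 ng/ml or not. The series' design text names the cytokines as what was added or left out, and no label says for a single library whether LIGHT was given. The groups are therefore called stimulated and unstimulated, as labelled. A response is the log2 fold change of stimulated over unstimulated libraries within 1 genotype, and the interaction is the LTβRΔN response minus the control response. The responses of the genotypes have no library in common. Their errors are therefore independent apart from what was shared in handling, scaling and the estimate of spread.

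GM-CSF and IL-6 signal through receptors that activate JAK kinases and STAT transcription factors, and the inhibitors CIS and SOCS3 are made in turn as feedback on these receptors. TNF signals through the classical NF-κB pathway, which induces its own inhibitors IκBα (Nfkbia) and A20 (Tnfaip3). LIGHT and lymphotoxin bind LTβR, which activates NF-κB, including the alternative branch through NF-κB2 and RelB. Neutrophils are short-lived cells, and the same cytokines prolong their life and raise the output of chemokines.

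The receptor's transcript checked the genotype labels. Ltbr had 93.6, 101 and 154 CPM (counts scaled to a common library size) in unstimulated and 84.6, 97.0, 105 and 148 CPM in stimulated control libraries. In LTβRΔN libraries it had 3.62, 8.80, 10.1 and 10.4 CPM unstimulated and 0.705, 3.71, 10.3, 10.5 and 18.1 CPM stimulated, so that the genotypes did not overlap. Stimulation changed it by -0.09 in control and by -0.01 in LTβRΔN neutrophils on the log2 scale. Library totals lay between 1094335 and 11932653 counts, with the lowest median in stimulated LTβRΔN libraries (2408608). Genes characteristic of neutrophils summed to between 46136 and 76535 CPM in every library. The 9 lists of markers of other or less mature blood cells held 17 tested genes, of which edgeR called 0 in either response (3 in control and 0 in LTβRΔN at an unadjusted p under 0.05), DESeq2 called Mki67 in control and limma 0. B cell, NK cell, erythroid and basophil markers stayed at or under 6.08 CPM summed in all libraries, T cell markers at or under 16.8, eosinophil markers at or under 11.3, and monocyte markers lay between 341 and 561 CPM in every library. Stimulated control library 82 had 780 CPM of immature neutrophil markers and 208 CPM of platelet markers, where the next library had 334 and 55.4 CPM, and Elane, Mpo and Ctsg were at 0 counts throughout. Without library 82 the genes called in both responses numbered 243, of which 236 were among the 253 described here. The index named in the library titles was S521 in all 9 stimulated libraries and in unstimulated control library 73, and S520 in the other 6. In LTβRΔN neutrophils index and stimulation cannot be told apart.

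Stimulation called nearly the same number of genes in both genotypes, and 401 of the 412 genes called in either response had the same sign in both. Genes were called at a Benjamini-Hochberg adjusted p under 0.05 by edgeR's quasi-likelihood test over 9213 tested genes. In control neutrophils 321 genes were called (3.48%), of which 260 rose (2.82%) and 61 fell (0.662%). In LTβRΔN neutrophils 344 were called (3.73%), with 275 higher (2.98%) and 69 lower (0.749%). Both responses called 253 genes (2.75%), which is 78.8% of the control and 73.5% of the LTβRΔN calls. Of these 217 rose (2.36%) and 36 fell (0.391%) in both genotypes, and 0 were called in opposite directions. The split into higher and lower genes depended on the scaling. With library totals in place of TMM factors, the median response of all genes moved from -0.02 to -0.27 in control and from -0.03 to -0.21 in LTβRΔN neutrophils, and the calls split into 201 higher and 272 lower in control, and 216 higher and 293 lower in LTβRΔN neutrophils. With that scaling the genes called in both numbered 305, and 0 of them were called in opposite directions.

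Over the 253 genes called in both, Pearson's r of the responses was 0.974 and the slope of the LTβRΔN on the control response 0.859 (jackknife SE over libraries 0.0543). These values describe genes that were chosen for passing in both genotypes and are no test. Reading the calls of one genotype in the other avoids a part of that choice. Of the 321 control calls, 317 had the same sign in LTβRΔN neutrophils and 296 also had an unadjusted p under 0.05 there (edgeR). Of the 344 LTβRΔN calls, 337 had the same sign in control and 300 an unadjusted p under 0.05. Among the calls of either genotype, 97.3% of 412 genes kept their sign, beside 62.1% of all tested genes.

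**Figure D1:**
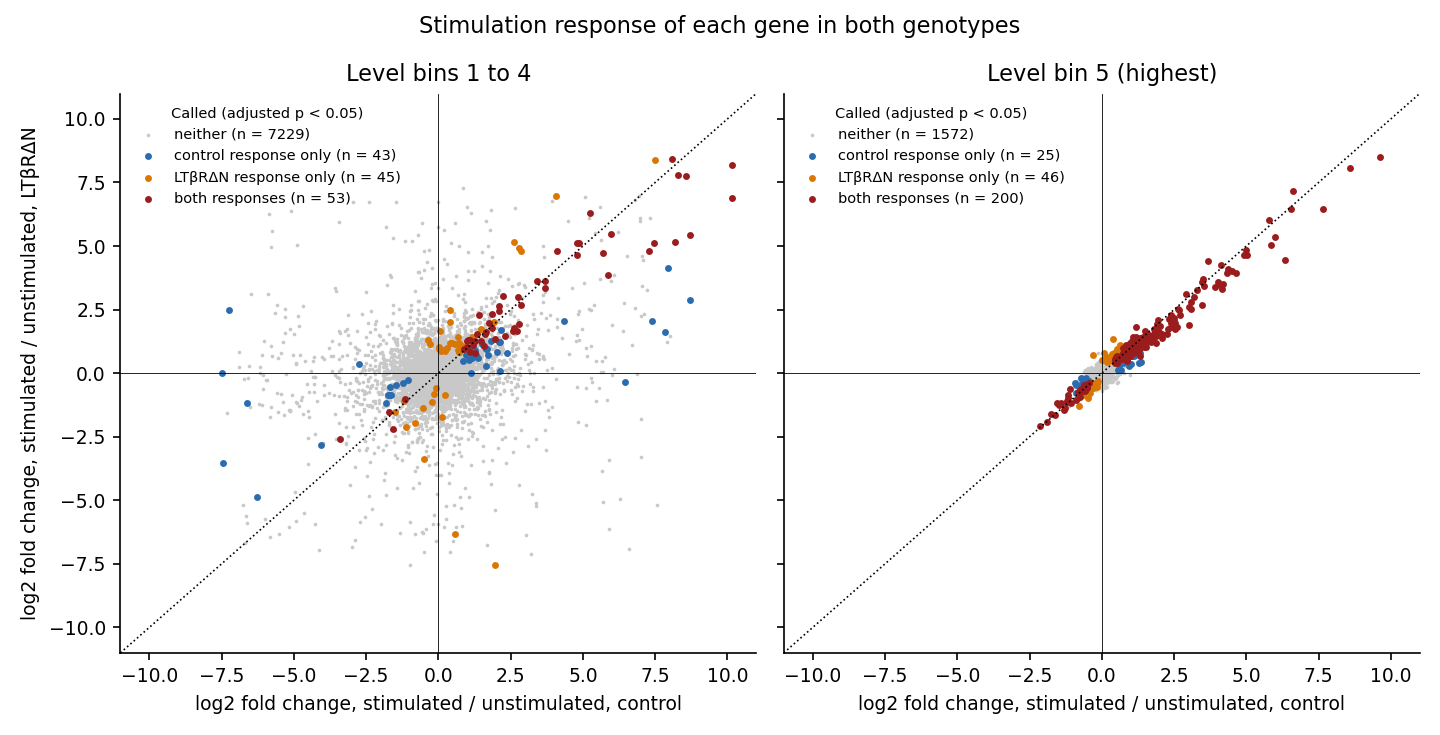
Log2 fold change of stimulated over unstimulated libraries in control (x axis) and LTβRΔN neutrophils (y axis) for 9213 genes, split into level bins 1 to 4 (left) and bin 5 (right). Red points were called in both genotypes, blue in control only, orange in LTβRΔN only and grey in neither, and the dotted line marks equal responses. In bin 5, which holds the most abundant transcripts, the 200 red points lie along the dotted line, while in the lower bins grey points spread widely around 0 in both directions.

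Over all 9213 tested genes r was 0.339 (jackknife SE 0.0286), Spearman's rho 0.297 and the slope of the LTβRΔN on the control response 0.306 (SE 0.0394). Genes are not independent replicates, and points of one library share its depth and scaling, so these are descriptions. The value over all genes depended on how many low genes were let in. It was 0.164 over 12865 genes with at least 1 count, and 0.723 over the 4776 genes with at least 10 counts in every library. Without any one of the 3 unstimulated control libraries it lay between 0.255 and 0.277. The filter was rerun in these fits and kept 9580 to 9604 genes, so the libraries and the gene set changed together. Split by mean level into 5 bins of equal size, from the lowest levels in bin 1 to the highest in bin 5, r rose from 0.203 (SE 0.0372) through 0.408, 0.541 and 0.664 to 0.955 (SE 0.0096). The slope went from 0.181 through 0.374, 0.489 and 0.653 to 0.884 (SE 0.0486), and rho from 0.194 to 0.702. With 10 bins, r was 0.187 in the lowest and 0.976 in the highest. The error of a single gene's response moved with level in the other direction. Its median SE in control was 1.58 log2 units in bin 1 and 0.181 in bin 5, in LTβRΔN 1.45 and 0.162. Bin 1, from 0.554 to 3.28 CPM, had a median of 4 counts per library, 31.8% of its values were 0 counts, and 230 of its 1843 genes had a whole group at 0. Bin 5, from 69.7 to 30925 CPM, had a median of 941 counts and no 0.

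The genes called in both fell in the same place, with 2, 7, 14, 30 and 200 of them from bin 1 to bin 5. With called genes of either genotype taken out, r still went from 0.187 through 0.216, 0.290 and 0.421 to 0.594 over the 1572 genes left in bin 5. A slope fitted on an error-prone control response is pulled toward 0. The major axis, which treats both responses alike, had slopes of 0.584 (SE 0.618), 0.807 (SE 0.279), 0.833 (SE 0.162), 0.975 (SE 0.104) and 0.923 (SE 0.0549) from bin 1 to bin 5. Dividing by the share of the control variance left after each gene's squared SE was taken off gave slopes of 0.361, 1.84, 1.08, 1.07 and 0.937 from bin 1 to bin 5. The rise of the regression slope with level was therefore not seen from bin 3 upward in the slope that allows for error.

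**Figure D2:**
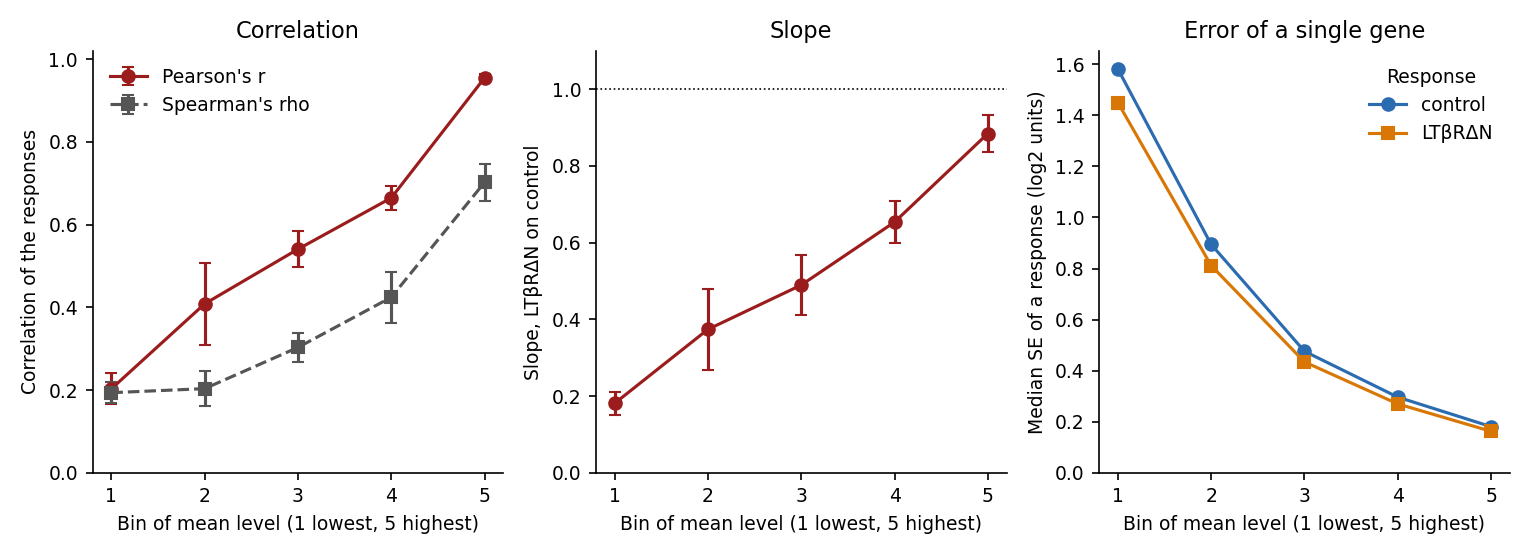
Correlation (left) and slope (middle) of the LTβRΔN and control responses, and the median standard error of a single gene's response (right), by bin of mean level (5 bins, lowest to highest). Points are values over 1842 or 1843 genes, bars in the left and middle panels are jackknife standard errors over libraries, grey squares are Spearman's rho, the dotted line marks a slope of 1, and blue and orange in the right panel are control and LTβRΔN. Correlation and slope rise with level to 0.955 and 0.884 while the error of a gene falls from 1.58 to 0.181 log2 units in control.

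The control response was also read without the S520 libraries. With unstimulated control library 73 alone as the baseline, which has the index of the stimulated libraries, the spread of that arm is taken from the other groups and fewer calls follow from having 1 library. In that fit the rerun filter kept 9990 genes, over which r was 0.146, and r over level bin 5 was 0.896. On group means of log2 CPM over the 9213 genes, r was 0.354 against library 73 alone and 0.462 against all unstimulated control libraries. On group means of log2 CPM, all 253 genes called in both kept their sign against library 73 alone. The difference between library 73 and the S520 control libraries 71 and 72 was set against the LTβRΔN response. They correlated at 0.0608 over all genes, at 0.287 over level bin 5 and at 0.202 over the genes called in both. In level bin 5 the median size of this difference was 0.183 log2 units, beside 0.204 for the LTβRΔN response. That difference includes whatever sets library 73 apart besides its index. With index as a term in the model, r over all genes was 0.658, 157 control and 79 LTβRΔN genes were called and 77 in both. Both responses then contain the same index term, estimated from the control libraries, so that r is raised by construction.

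Calls of one genotype could be followed in each library of the other. The 260 genes higher in control had a mean log2 CPM of 5.68 to 5.85 in unstimulated and 7.67 to 7.94 in stimulated control libraries. LTβRΔN libraries entered that choice only through the gene filter, the scaling and the estimate of spread, which all groups shared. In LTβRΔN libraries the same genes had means of 5.77 to 6.02 unstimulated and 7.55 to 7.93 stimulated. The 61 genes lower in control went from 7.31 to 7.38 down to 5.72 to 6.15 in control and from 7.23 to 7.34 down to 6.25 to 6.45 in LTβRΔN libraries. Stimulated and unstimulated libraries of LTβRΔN neutrophils did not overlap for either set. The reverse reading gave the same order. Genes higher in LTβRΔN had means of 5.84 to 6.06 in unstimulated and 7.67 to 7.91 in stimulated control libraries, and genes lower in LTβRΔN had 7.90 to 7.97 and 6.96 to 7.34.

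Promoters of 4 feedback genes that rose in both genotypes are printed with the sequence elements named for the pathways the cytokines use. Windows run from 250 bases before to 50 after the RefSeq start (GRCm38.p6), on the gene's strand, 5′ to 3′. Capitals mark TTCNNNGAA, an element of STAT type, in Cish and Socs3, and GGGNNTTTC, of NF-κB type, or its reverse complement in Nfkbia and Tnfaip3 (of its 2 windows, the one that holds it). The STAT-type element is its own reverse complement. Cish is shown for its 2 adjacent STAT-type elements, Socs3 for 1, Nfkbia for 3 NF-κB-type elements and Tnfaip3 for 2. The genes shown were chosen for holding these letters. The 2 windows of Pim1, of the STAT list, held 0 STAT-type elements, and that of Sod2, of the NF-κB list, held 0 NF-κB-type elements and 1 of STAT type.
Cish, chr9:107296409-107296708, plus strand: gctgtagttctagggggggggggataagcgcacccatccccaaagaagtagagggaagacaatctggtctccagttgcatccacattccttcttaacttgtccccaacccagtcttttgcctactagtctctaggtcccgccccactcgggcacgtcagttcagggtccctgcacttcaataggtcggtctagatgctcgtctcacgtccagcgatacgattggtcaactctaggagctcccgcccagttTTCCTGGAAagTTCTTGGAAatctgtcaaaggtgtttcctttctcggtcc
Socs3, chr11:117969317-117969616, minus strand: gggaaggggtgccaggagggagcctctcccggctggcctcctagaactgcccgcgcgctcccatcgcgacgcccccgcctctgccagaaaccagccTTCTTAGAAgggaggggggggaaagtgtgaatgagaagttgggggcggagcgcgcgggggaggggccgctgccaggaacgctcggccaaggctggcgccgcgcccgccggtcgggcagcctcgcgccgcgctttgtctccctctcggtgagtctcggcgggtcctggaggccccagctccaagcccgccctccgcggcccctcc
Nfkbia, chr12:55492598-55492897, minus strand: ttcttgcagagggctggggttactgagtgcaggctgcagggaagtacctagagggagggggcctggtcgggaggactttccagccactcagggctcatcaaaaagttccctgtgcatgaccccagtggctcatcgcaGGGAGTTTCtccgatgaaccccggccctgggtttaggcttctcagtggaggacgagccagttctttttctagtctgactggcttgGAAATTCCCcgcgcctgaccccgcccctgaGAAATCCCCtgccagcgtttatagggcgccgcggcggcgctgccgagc
Tnfaip3, chr10:19015361-19015660, minus strand: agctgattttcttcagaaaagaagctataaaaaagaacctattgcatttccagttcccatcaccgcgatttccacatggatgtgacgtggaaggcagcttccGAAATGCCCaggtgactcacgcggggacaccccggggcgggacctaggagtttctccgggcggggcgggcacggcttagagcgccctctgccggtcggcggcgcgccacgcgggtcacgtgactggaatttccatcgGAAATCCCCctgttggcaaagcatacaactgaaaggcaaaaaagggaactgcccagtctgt

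A match is a description of letters, and binding was not measured. Searched on both strands over the genes with a RefSeq window (80.6% of 9207 distinct symbols tested), the STAT-type element stood in 12.7% of 237 windows of genes higher in both genotypes, beside 6.92% of 9425 windows of all tested genes. The NF-κB-type element stood in 8.02% and 4.37% of the same windows. Over 32851 windows of the whole promoter table the shares were 8.30% and 4.36%. Windows of genes called in control only held the STAT-type element in 9 of 68 cases (13.2%), and those called in LTβRΔN only in 5 of 101 (4.95%). The NF-κB-type element stood in 5 (7.35%) and 7 (6.93%) of the same windows. For genes lower in both, fewer than 80% had a window and no share is given.

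Genes of the JAK-STAT feedback loop rose in both genotypes. Cish, the inhibitor whose promoter holds adjacent STAT-type elements, had 0.561, 0.793 and 1.67 CPM in unstimulated and 272, 409, 468 and 589 CPM in stimulated control libraries. In LTβRΔN libraries it had 0.426, 0.773, 2.94 and 5.60 CPM unstimulated and 240, 274, 433, 471 and 475 CPM stimulated. The treatments were far apart and the genotypes overlapped within each. Its response was 8.60 in control (SE 0.507, edgeR adjusted p = 2.68e-11) and 8.05 in LTβRΔN neutrophils (SE 0.462, adjusted p = 1.36e-11), with a 95% interval of the interaction from -2.03 to 0.94. Socs3 had 780, 789 and 1608 CPM unstimulated and 13853, 17278, 18119 and 19692 CPM stimulated in control, and 872, 1162, 1716 and 2164 CPM unstimulated and 17197, 17286, 17682, 18505 and 18740 CPM stimulated in LTβRΔN libraries. No stimulated library overlapped an unstimulated one in either genotype, and the ranges of the genotypes overlapped. Its responses were 4.03 and 3.59 (SE 0.280 and 0.238, edgeR adjusted p = 4.31e-10 and 1.72e-10), with the interaction between -1.09 and 0.22.

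Of the 19 tested genes of the STAT list, 8 rose in both genotypes (Cish, Csf2rb, Id1, Jak2, Osm, Pim1, Socs1 and Socs3), and 0 were called in only one. This list and those that follow are read against all tested genes. Of these 2.82% rose in control, 2.98% in LTβRΔN and 2.36% in both, and 0.391% fell in both. Id1, an inhibitor of helix-loop-helix factors, had responses of 4.10 and 3.48, and the kinase Pim1 of 2.67 and 2.50. The list's median response was 0.53 in control and 0.18 in LTβRΔN neutrophils, beside -0.02 and -0.03 over all tested genes, and 15 of its 19 genes had the smaller response in LTβRΔN.

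NF-κB inhibitors rose in both genotypes. Nfkbia had 369, 506 and 768 CPM in unstimulated and 16684, 16964, 17776 and 18682 CPM in stimulated control libraries. LTβRΔN libraries had 510, 563, 652 and 721.2 CPM unstimulated and 15756, 17265, 18141, 18350 and 18629 CPM stimulated. The ranges of the genotypes overlapped before and after stimulation. The responses were 5.001 (SE 0.203, edgeR adjusted p = 5.27e-14) and 4.85 (SE 0.175, adjusted p = 4.31e-15), and the interval of the interaction, -0.60 to 0.30, bounds a difference to under 1 log2 unit in either direction.

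Tnfaip3, which encodes the ubiquitin-editing enzyme A20, had the smallest p of all genes for the response averaged over both genotypes, and a somewhat smaller response in LTβRΔN. It had 40.8, 47.7 and 79.4 CPM in unstimulated and 3212, 3469, 3627 and 3743 CPM in stimulated control libraries. LTβRΔN libraries had 74.4, 79.2, 80.6 and 88.1 CPM unstimulated and 2917, 3228, 3275, 3403 and 3665 CPM stimulated. The unstimulated values were lower in control libraries 71 and 72 than in any LTβRΔN library, with library 73 inside the LTβRΔN range. The responses were 5.98 and 5.35 (SE 0.202 and 0.171, edgeR adjusted p = 1.97e-15 and 6.04e-16). The interaction was -0.63 (SE 0.210, interval -1.07 to -0.20, edgeR unadjusted p = 0.00652, adjusted p = 1). With index as a term it was -0.97 and passed (edgeR adjusted p = 0.0488).

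Of 21 tested NF-κB targets, 15 rose in control and 14 in LTβRΔN neutrophils, 13 of them in both, and 0 fell. Sod2, the mitochondrial superoxide dismutase, is also an NF-κB target. It had 21.9, 22.9 and 25.1 CPM unstimulated and 439, 530, 558.5 and 602 CPM stimulated in control, and 26.1, 27.2, 28.1 and 40.0 CPM unstimulated and 345, 378, 481, 636 and 637 CPM stimulated in LTβRΔN libraries. Its responses were 4.51 and 4.003, and the unstimulated ranges did not overlap. In the alternative branch, 4 of 13 tested genes rose in control (Birc3, Nfkb2, Relb and Traf6) and 3 of these passed in both genotypes. Nfkb2, whose product is the precursor of p52, had responses of 1.20 and 1.42 and an interaction between -0.42 and 0.86. Traf6, an adaptor of Toll-like and TNF-family receptors, had 2.31 and 1.45, and its LTβRΔN call was lost when the 3 libraries under 2000000 counts were left out (edgeR adjusted p = 0.137). The control call of Birc3, an inhibitor of apoptosis, was lost without library 72, 73 or 81 and its LTβRΔN call without library 67, 68, 70, 76 or 77, and both with library totals.

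**Figure D3:**
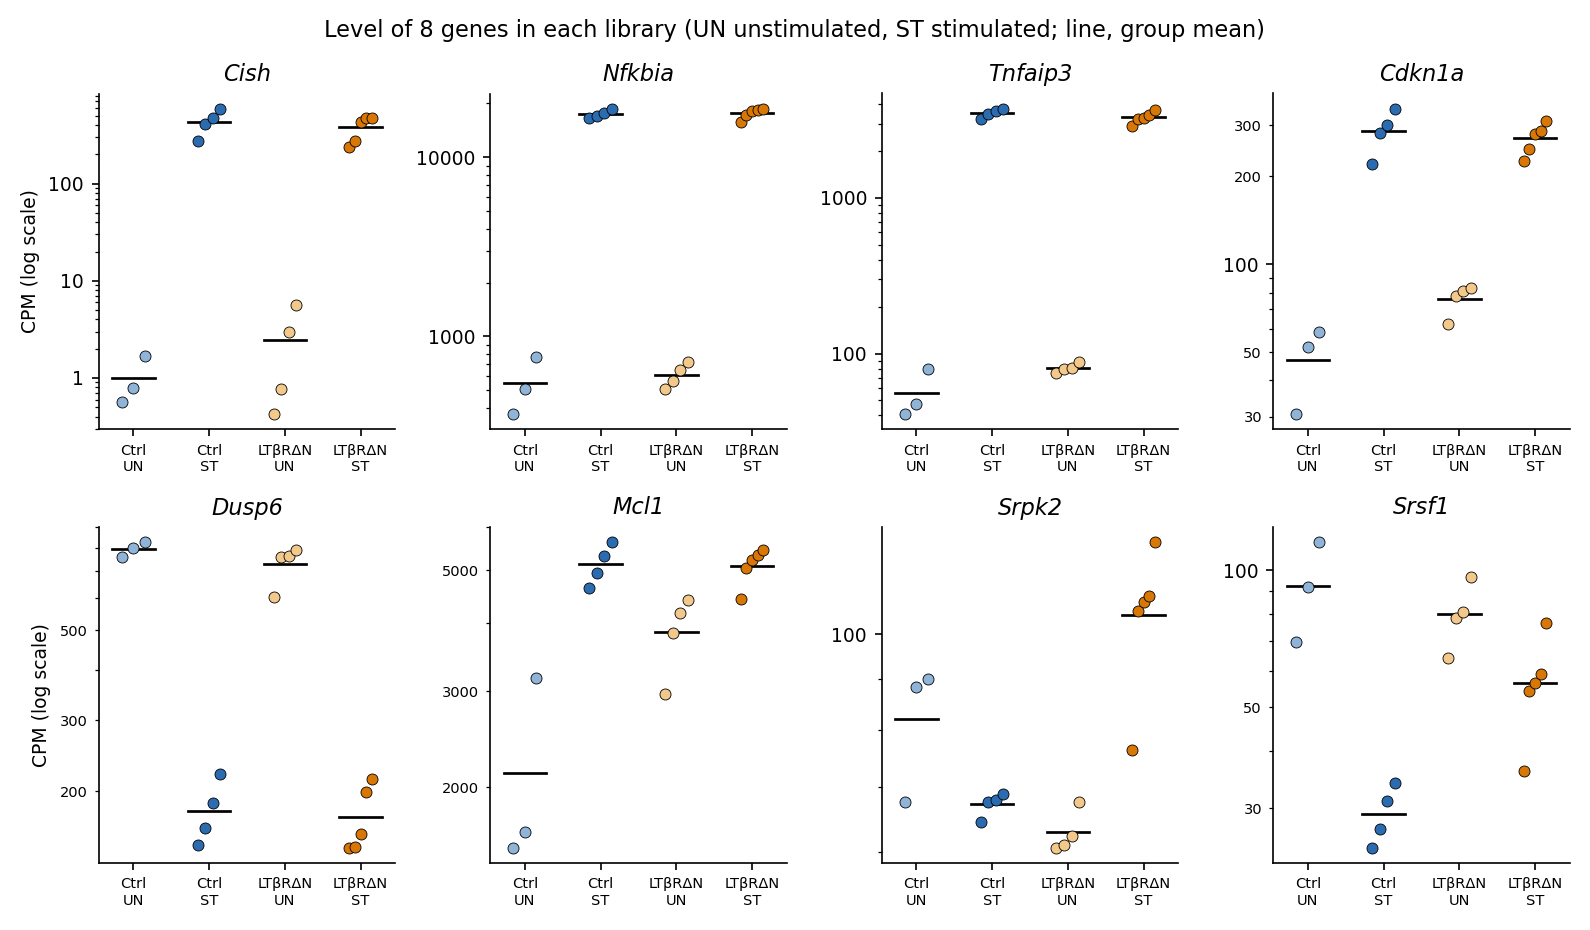
Level of 8 genes in each library in CPM on a log axis, by genotype and treatment (UN unstimulated, ST stimulated), with lines at group means. Cish, Nfkbia, Tnfaip3 and Cdkn1a rise and Dusp6 falls in both genotypes, with the interval of the interaction off 0 for Tnfaip3 and Cdkn1a, while Mcl1, Srpk2 and Srsf1 are called in only one genotype and are among the genes with the smallest interaction p.

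Cytokine and chemokine genes rose in both genotypes. Of 21 tested genes 11 rose in control and 12 in LTβRΔN neutrophils, 11 of them in both, with a median response of 1.62 and 1.44. Il23a, the p19 subunit of interleukin 23, had 0.532, 1.25 and 3.23 CPM unstimulated and 811, 1182, 1346 and 1355 CPM stimulated in control libraries. In LTβRΔN libraries it had 0.596, 2.94, 4.07 and 5.60 CPM unstimulated and 541, 632, 920, 1025 and 1259 CPM stimulated. The stimulated ranges overlapped, with the lowest 2 values in LTβRΔN libraries. The responses were 9.61 and 8.50 (SE 0.526 and 0.456) and the interaction between -2.52 and 0.31. The chemokine genes Cxcl3 (5.03 and 4.66) and Cxcl10 (6.62 and 7.17) had interaction intervals of -0.99 to 0.25 and -0.84 to 1.95.

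Tnf itself rose from 2.05, 11.9 and 13.2 CPM to 98.4, 151, 171 and 223 CPM in control and from 8.00, 10.3, 10.4 and 19.7 CPM to 109, 131, 137, 159 and 162 CPM in LTβRΔN libraries. No stimulated library overlapped an unstimulated one. Its responses were 4.19 and 3.50 (SE 0.445 and 0.385, edgeR adjusted p = 4.60e-07 and 8.03e-07). Among 8 tested genes for LIGHT, lymphotoxins and their receptors, Tnf, Lta and Ltb rose in both genotypes, and Tnfrsf1a, a TNF receptor, fell in control only. Ltb, which encodes lymphotoxin β, rose by 0.77 and 0.58, with the interaction between -0.51 and 0.14. Lta, lymphotoxin α, had 0 counts in all 7 unstimulated libraries and 0 to 78 counts in the stimulated ones, where 1 LTβRΔN library also had 0. Its control call was lost without any one of the unstimulated control libraries and its LTβRΔN call without any one of libraries 67, 69, 70 and 76, and no fold is given against 0.

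Among surface receptors, early response and survival genes, most calls were also shared. Of 32 tested surface genes 11 rose in control and 10 in LTβRΔN, all 10 in both, among them Tlr2, a receptor for bacterial lipoproteins (1.84 and 1.62), and the adhesion molecule Icam1 (4.15 and 3.33). Of 33 ERK feedback and early response genes, 12 rose and 2 fell in both. The phosphatase gene Dusp2 had responses of 3.48 and 2.70 and an interaction interval off 0 (-1.30 to -0.26, edgeR adjusted p = 1), and Ier3 had 4.37 and 4.12. Of 33 survival and death genes 9 rose and 1 fell in both, including the antiapoptotic Bcl2a1b (4.65 and 3.95), whose near-identical paralogs may share its reads, and the stress gene Gadd45b (3.54 and 3.42).

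Cdkn1a, the cell cycle inhibitor p21, had 30.7, 52.0 and 58.4 CPM in unstimulated and 221, 283, 300 and 341 CPM in stimulated control libraries. LTβRΔN libraries had 62.4, 77.9, 80.7 and 82.9 CPM unstimulated and 226, 249, 279, 287 and 311 CPM stimulated. The unstimulated ranges of the genotypes did not overlap, and the stimulated LTβRΔN range lay inside that of control. The responses were 2.61 and 1.82 (SE 0.210 and 0.179, edgeR adjusted p = 5.54e-09 and 1.37e-07), and the interaction was -0.79 (interval -1.33 to -0.26, edgeR unadjusted p = 0.00566, adjusted p = 1).

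Genes that fell are led by Dusp6 in both genotypes. Dusp6, a phosphatase that dephosphorylates ERK, had 759, 799 and 826 CPM unstimulated and 147, 162, 187 and 220 CPM stimulated in control libraries. In LTβRΔN libraries it had 604, 759, 764 and 792 CPM unstimulated and 145, 146, 157, 199 and 214 CPM stimulated. It fell in both without overlap of treatments, by 2.15 and 2.08 on the log2 scale (SE 0.159 and 0.142, edgeR adjusted p = 1.28e-09 and 2.77e-10), with the interaction between -0.37 and 0.50. The others with the smallest p among falling genes were Osgin1, a growth inhibitor induced by oxidative stress (-1.63 and -1.66), the kinases Plk3 (-1.26 and -1.38) and Stk17b (-0.79 and -0.74), and F630028O10Rik (-1.07 and -1.16). Slc16a3, the lactate exporter MCT4, fell from 950, 1053 and 1063 CPM to 551.1, 565, 673 and 711 CPM in control. In LTβRΔN it fell from 1048, 1125, 1198 and 1266 CPM to 602, 701, 728.9, 740 and 767 CPM. Both responses were -0.71 (SE 0.121 and 0.107, edgeR adjusted p = 4.07e-04 and 7.55e-05).

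Shares of called genes in the other lists are read against 3.48% and 3.73% of all tested genes. Of 36 tested genes of ROS production and antioxidants, 6 rose and 2 fell in both and 0 in only one, with Txnrd1, a thioredoxin reductase, at 3.30 and 3.27. Of 36 interferon-stimulated genes 3 rose in both (Cd274, Cxcl10 and Irf1), and Irf1 had 1.80 and 1.54. Of 23 glycolysis genes 1 rose and 1 fell in both, the glucose transporter gene Slc2a1 (0.98 and 0.90) and Slc16a3. Of 75 nuclear subunits of the electron transport chain edgeR, DESeq2 and limma each called 0 in control (3 at an unadjusted p under 0.05 by edgeR) and 1 in LTβRΔN neutrophils, Sdhd, which fell by 0.57 (edgeR adjusted p = 0.0353) against -0.32 in control (adjusted p = 0.522). Uqcrfs1, a subunit of complex III, was called lower in control without library 81 (edgeR adjusted p = 0.0375) and in both genotypes with library totals. The Sdhd call was lost without any one of LTβRΔN libraries 67, 68, 70, 76, 78 and 79, and under a replicate block (edgeR adjusted p = 0.0750). At an unadjusted p under 0.05, 1 of the 75 had an interaction. Their responses correlated at 0.185 across genes, and the list's median was -0.01 in control and -0.09 in LTβRΔN. Of 21 granule and effector genes edgeR called 0 in either response (3 and 2 at an unadjusted p under 0.05) and limma 0, while DESeq2 called Hp in control and Cebpd in LTβRΔN. Under a replicate block Cebpd was called in LTβRΔN (edgeR adjusted p = 0.0121) and Mmp8 in control (adjusted p = 0.0188), with library totals Cebpd was called in both and Mmp8 in control, and without library 68 Cebpd was called in LTβRΔN (adjusted p = 0.0253). The responses of the 21 genes, with medians of 0.07 in control and -0.08 in LTβRΔN, correlated at -0.42 across genes. Of the 21 genes 15 had the same sign in both genotypes, and over all tested genes r was 0.339.

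**Figure D4:**
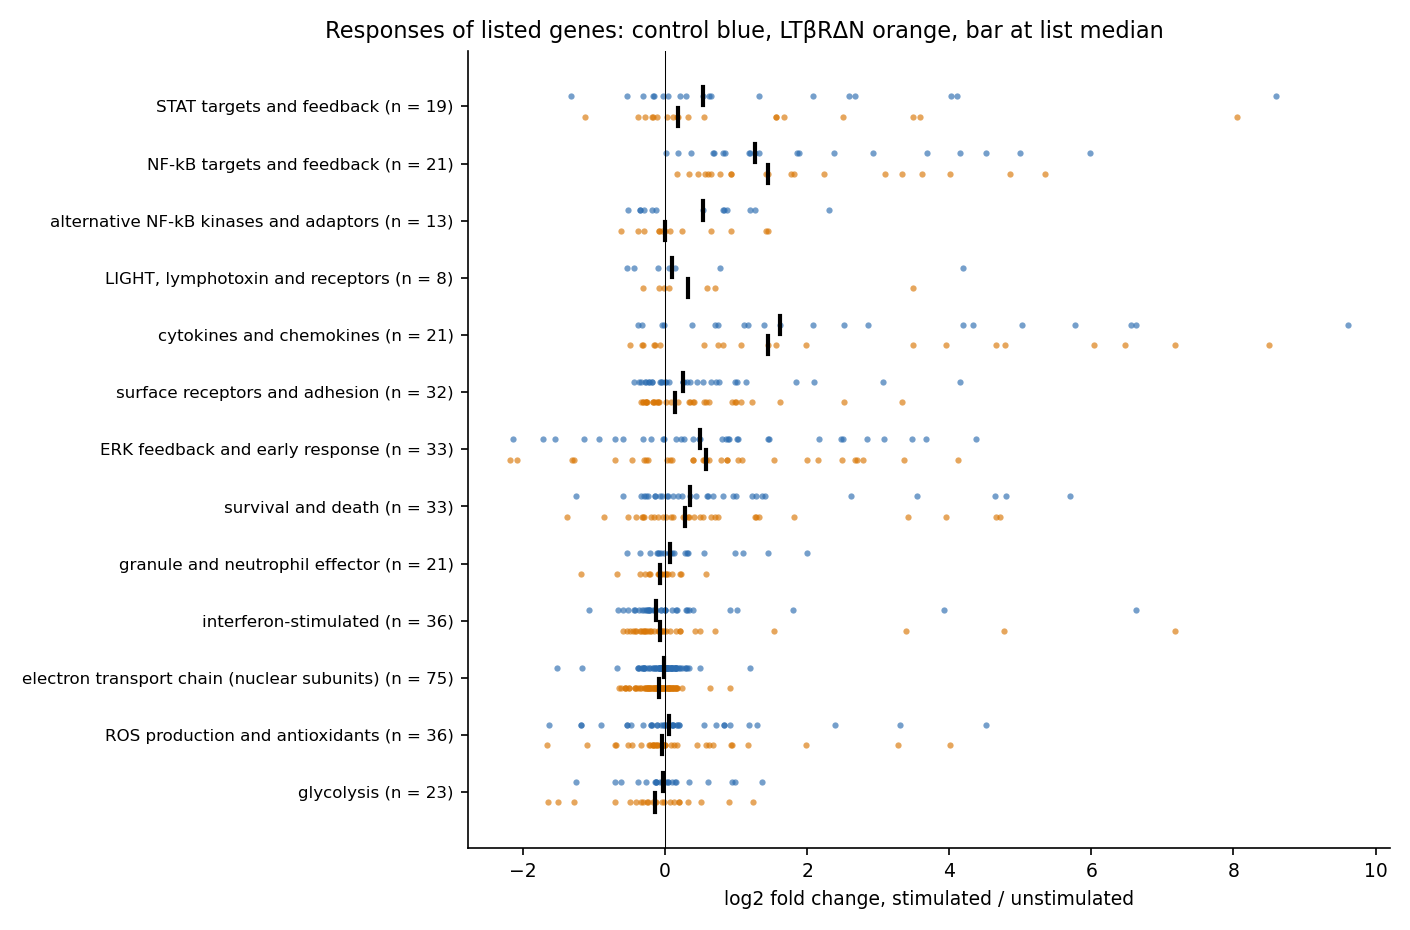
Log2 fold change of stimulated over unstimulated libraries for the genes of 13 lists, control in blue (upper row) and LTβRΔN in orange (lower row). Points are tested genes with counts in every group, bars are medians over all tested genes of the list, and n is the number tested. Shared positive responses above 3 are seen in both genotypes for genes of most lists, such as Cish, Tnfaip3, Icam1, Sod2 and Cxcl10, while the 75 electron transport genes lie close to 0 in both genotypes, with medians of -0.01 and -0.09.

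Among genes called in both, the LTβRΔN response was more often the smaller one. Of the 253 genes 180 (71.1%) had the smaller response in LTβRΔN, where 51.7% of all tested genes did. The share depended on how genes were chosen. Of 620 genes called on the response averaged over both genotypes, 394 (63.5%) had the smaller one in LTβRΔN, with a median ratio of 0.913 (jackknife SE 0.0699). Over the 253 genes the median ratio of the LTβRΔN to the control response was 0.914 (jackknife SE 0.0518, 0.877 to 0.944 with each library left out). This median lay less than 2 SE under 1. Over the same genes the regression slope of 0.859 (SE 0.0543) and the major axis slope of 0.879 (SE 0.0533) lay more than 2 SE under 1. The ratio was similar across sizes, at 0.928 for 76 genes with a mean response under 1, 0.915 for 96 between 1 and 2, 0.899 for 46 between 2 and 4 and 0.914 for 35 of 4 or more. It was 0.913 for genes that rose and 0.932 for genes that fell. Genes, ratios and slopes share libraries, and no test of the ratio or of these slopes was made.

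The levels of these genes within each treatment were set beside the ratio. Of the 217 genes higher in both, 140 (64.5%) had a higher unstimulated level in LTβRΔN than in control, with a median difference of 0.12, and 132 (60.8%) a lower stimulated level, with a median of -0.05 on the log2 scale. For all tested genes these shares were 48.7% and 51.2%. None of the 217 was called between genotypes by edgeR in either treatment, and 25 unstimulated and 5 stimulated differences had an unadjusted p under 0.05 (11.5% and 2.30%), beside 2.80% and 6.41% of all tested genes. Differences within a treatment use the same libraries as the responses and are therefore not a separate line of evidence. Cdkn1a (0.71 unstimulated and -0.08 stimulated), Tnfaip3 (0.54 and -0.09), Dusp2 (0.57 and -0.21) and Sod2 (0.40 and -0.10) had this pattern. Nfkbia had 0.16 and 0.01.

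The interaction called 0 of 9213 genes by edgeR (0%), where the smallest adjusted p was 1, and 342 genes (3.71%) had an unadjusted p under 0.05, fewer than the 461 that a uniform spread of p-values gives. DESeq2's Wald test also called 0, with 356 at an unadjusted p under 0.05, and limma on log2 CPM called 0, with 328. The absence of a call does not show equal responses, so intervals were read. Of the 253 genes called in both, 167 had a 95% interval of the interaction inside -1 to 1, which bounds the responses to within 1 log2 unit of each other. The median SE of the interaction was 0.266 log2 units over these genes, and 2.13 over level bin 1 of all genes, where a difference of that size was not detectable. The narrowest intervals were those of Slfn2 (-0.42 to 0.18), the β-glucan receptor gene Clec7a (-0.41 to 0.15), the Fc receptor gene Fcgr3 (-0.39 to 0.20), Ndel1 (-0.27 to 0.34) and 2810474O19Rik (-0.18 to 0.43). The small responses of Ndel1 (-0.43 and -0.40) lost their control call without library 72, 73, 82 or 83 and their LTβRΔN call without library 67 or 79. For 2810474O19Rik (0.45 and 0.57) the control call was lost without library 71, 72, 80 or 81 and with library totals.

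**Figure D5:**
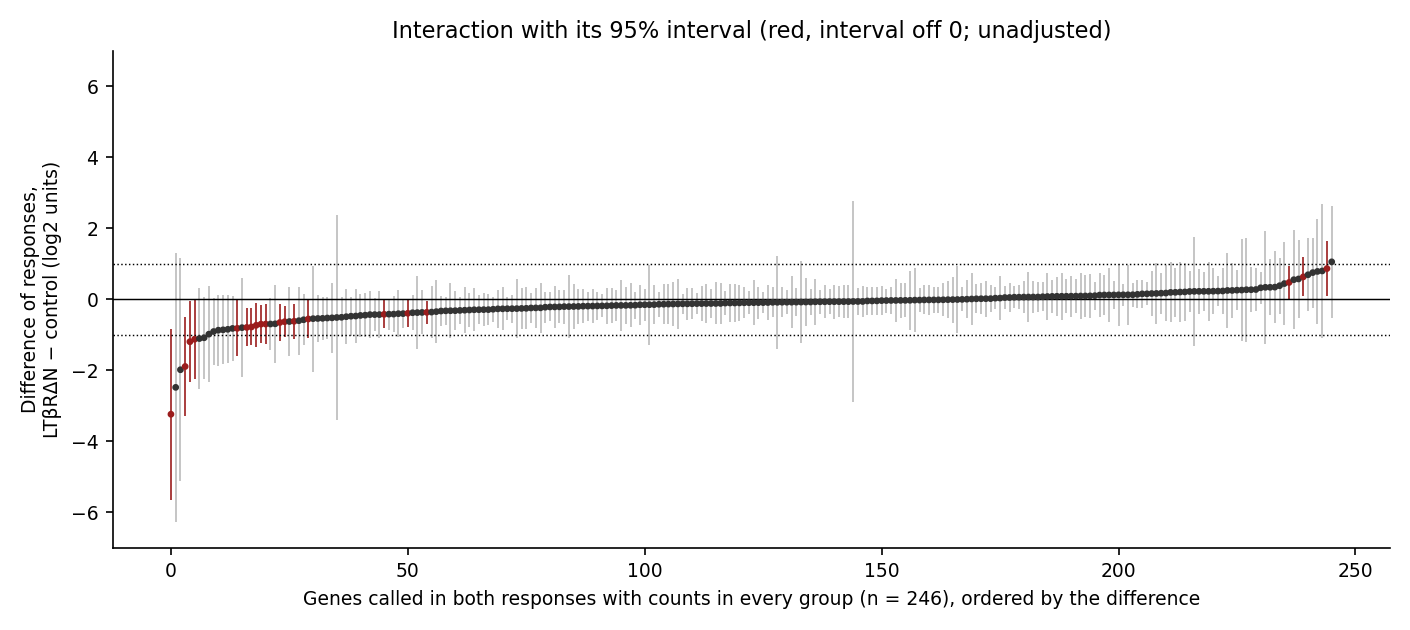
Interaction (LTβRΔN minus control response, log2 units) with its unadjusted 95% interval for the 246 genes called in both responses that had counts in every group, ordered by value. Red marks the 20 genes whose interval lies off 0, 17 of them below and 3 above, and dotted lines mark -1 and 1. Most intervals cross 0 and lie inside the dotted lines.

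Among well counted genes, Srpk2, which encodes a kinase of splicing factors, had the smallest interaction p. It had 67.5, 88.4 and 90.1 CPM in unstimulated and 64.5, 67.5, 67.9 and 68.8 CPM in stimulated control libraries. LTβRΔN libraries had 60.7, 61.1, 62.4 and 67.6 CPM unstimulated and 76.2, 106, 108, 109 and 124 CPM stimulated. It was higher in all 5 stimulated LTβRΔN libraries than in any unstimulated one, and no such order was seen in control. The responses were -0.29 (edgeR adjusted p = 0.638) and 0.72 (adjusted p = 0.00879), with an interaction of 1.01 (interval 0.51 to 1.52, edgeR unadjusted p = 3.90e-04, adjusted p = 1). Without the 3 libraries under 2000000 counts the LTβRΔN response no longer passed (0.61, edgeR adjusted p = 0.137). Nor did it pass with library totals (0.54, edgeR adjusted p = 0.0620) or with index as a term (1.13, adjusted p = 0.209).

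Srsf1, a splicing factor that such kinases phosphorylate, differed in size. It had 69.6, 91.9 and 115 CPM unstimulated and 24.6, 27.0, 31.1 and 34.1 CPM stimulated in control libraries. In LTβRΔN libraries it had 64.0, 78.5, 81.0 and 96.8 CPM unstimulated and 36.1, 54.2, 56.6, 59.2 and 76.6 CPM stimulated. The stimulated ranges of the genotypes did not overlap, and those of LTβRΔN treatments did. The responses were -1.66 (edgeR adjusted p = 4.05e-05) and -0.53 (adjusted p = 0.252), with an interaction of 1.13 (interval 0.47 to 1.80, edgeR unadjusted p = 0.00181, adjusted p = 1).

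Mcl1, the antiapoptotic protein on which neutrophil survival depends, was called in control only. It had 1549, 1655 and 3172 CPM unstimulated and 4644, 4947, 5319 and 5630 CPM stimulated in control libraries. LTβRΔN libraries had 2965, 3831, 4172 and 4415 CPM unstimulated and 4430, 5060, 5213, 5344 and 5458 CPM stimulated. The stimulated ranges overlapped, and every unstimulated LTβRΔN library was above 2 of the 3 unstimulated control libraries. The responses were 1.27 (edgeR adjusted p = 5.82e-05) and 0.41 (adjusted p = 0.228), and the interaction -0.87 (interval -1.37 to -0.36, edgeR unadjusted p = 0.00164, adjusted p = 1). The 1 high unstimulated control value was that of library 71. Without it the interaction was -1.27 and passed (edgeR adjusted p = 0.00585), and the LTβRΔN response of 0.41 passed as well (adjusted p = 0.0410).

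Most of the other genes with the smallest interaction p were counted too rarely for a size. C130060C02Rik had 0 counts in all 5 stimulated LTβRΔN libraries and 6, 7, 8 and 35 in unstimulated ones, with 4, 4 and 8 unstimulated and 1, 11, 20 and 46 stimulated counts in control. For 1810011H11Rik all 4 stimulated control libraries had 0 counts, and unstimulated ones 23, 24 and 46, while LTβRΔN libraries had 1, 14, 22 and 24 unstimulated and 0, 0, 2, 5 and 64 stimulated. Dmwd, Sgsm3 and Ppp1r32 likewise had whole groups at 0 counts. Of the 9213 tested genes 236 had such a group, and 121 of the 342 genes with an unadjusted interaction p under 0.05 were in level bin 1. Hps4, a subunit of a lysosome biogenesis complex, had counts in every library and responses of 1.11 and -1.19, neither called (edgeR adjusted p = 0.293 and 0.139), with an interaction of -2.30 (interval -3.57 to -1.03).

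Among genes called in both, Saa3, an acute phase protein, had a large interaction. It had 0, 0.0761 and 0.113 CPM in unstimulated and 17.98, 39.1, 39.4 and 49.6 CPM in stimulated control libraries. LTβRΔN libraries had 0 CPM in 3 unstimulated libraries and 1.36 in the other, and 13.7, 22.9, 24.7, 29.2 and 32.2 CPM stimulated. The stimulated ranges overlapped, and the size of each response rests on 1 or 2 unstimulated libraries with any count. The responses were 8.69 and 5.45 and the interaction -3.24 (interval -5.64 to -0.83). Kalrn had 0 counts in all unstimulated libraries but 1, which had 2. Stimulated control libraries had 64, 120, 216 and 268 counts and stimulated LTβRΔN libraries 11, 12, 14, 44 and 144, not scaled for depth. In CPM the stimulated ranges were 7.99 to 29.2 in control and 5.39 to 17.8 in LTβRΔN, which overlapped.

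Genes called in only one genotype mostly had the same sign in the other. Of 68 genes called in control only, 64 had the same sign in LTβRΔN and 43 an unadjusted p under 0.05 there in the same direction (edgeR). Of 91 called in LTβRΔN only, 84 had the same sign in control and 47 also an unadjusted p under 0.05. By construction their sizes differ, with a median ratio of the LTβRΔN to the control response of 0.517 in the first set and 1.75 in the second. Slc2a6, a glucose transporter gene called in control only, had 0.60 and 0.32 with an interaction between -0.66 and 0.09, and its control call was lost without library 72 or library 73. Its LTβRΔN response passed under a replicate block (edgeR adjusted p = 0.0422) and without the libraries under 2000000 counts (adjusted p = 0.0468). Of the 342 genes with an unadjusted interaction p under 0.05 (edgeR), 66 were called in either response, where 412 of the 9213 tested genes (4.47%) were. Calls and interaction use the same libraries, so this is a description.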

How the data were processed

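Poly(A) or total RNA selection, strand and annotation are not given in the sources used here. The submitters' processing notes name Bowtie 1.0.0, TopHat 1.4.1, HTSeq 0.7.1 and the mm10 build, and the authors deposited raw read counts per gene symbol for 23337 genes in 16 libraries, with 0 per-sample columns unused. Totals of 1094335 to 11932653 counts per library set the precision, and 95% intervals cover the spread between libraries. No label says that the libraries came from separate mice, so p-values may measure technical spread only. In bulk RNA, fewer cells of a type and less RNA per cell cannot be told apart.

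Genes were kept by filterByExpr (minimum count 10, minimum total 15), leaving 9213. Counts were scaled by TMM and fitted over all 4 groups together with edgeR 4.0.16 quasi-likelihood tests in R 4.3.3, with Benjamini-Hochberg adjustment over all tested genes and a threshold of 0.05. CPM values use TMM-scaled totals, and mean levels used a prior count of 2. The response of each genotype and their difference (interaction) were contrasts of 1 fit. Correlation, regression and major axis slopes were computed across genes, with standard errors from a jackknife that left out each library in turn. Genes with all libraries of a group at 0 counts have no SE or interval. The scripts were tested on simulated data. Alternatives were other scalings, filters, thresholds and bin numbers, the index as a covariate or the S521 libraries alone, DESeq2 1.42.0, limma 3.58.1 on log2 CPM, a replicate block and libraries left out, with the omission of libraries 68 and 80 and of genes with a group at 0 chosen after seeing the data. Numbers in the column names recur across treatments but are not said to mark mice, and the deviations of same-numbered libraries correlated at 0.0214 to 0.0694.

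Genes are named that had the smallest p of the mean response in each list or direction, the smallest interaction p, the narrowest or largest interaction among genes called in both, or the largest among those called in one genotype, with Ltbr, Cish, Socs3, Nfkbia, Tnfaip3 and Dusp6. The genes, lists and comparisons were chosen with earlier results of these data known. Promoter windows came from RefSeq (GRCm38.p6).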

Additional observations from a re-analysis of the deposited data

Results flagged for a closer look

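A library far from the others was looked for in 63 sets of values, each a gene or library measure in 1 of the 3 groups of 4 or 5 libraries. It was found in 4 sets, where chance gives about 1 in 20. Stimulated control library 80 had 8574 genes with a count, and the other 3 libraries of its group had 9521 to 9628. Stimulated LTβRΔN library 76 had 8575220 counts, against 1506150 to 2728980 in the other 4. Unstimulated LTβRΔN library 70 had 1.36 CPM of Saa3, where the other 3 were at 0, and 40.0 CPM of Sod2, where the others had 26.1 to 28.1. Without library 70 the major axis slope of the genes called in both was 0.941 in place of 0.879.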

How the results depend on the processing

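No correlation, slope or called response of a named gene changed sign under the alternatives run, but with library totals the majority of calls turned from higher to lower in both genotypes (201 and 272 in control, 216 and 293 in LTβRΔN). With every gene of at least 1 count, r over all genes was 0.164, the slope 0.159 and r in level bin 5 0.926, and with at least 10 counts in every library these were 0.723, 0.674 and 0.966. With index as a covariate they were 0.658, 0.727 and 0.942, the major axis slope of genes called in both was 0.984, 157 control and 79 LTβRΔN genes and 77 in both were called, 100% of calls kept their sign, and the interaction called 1 gene, Tnfaip3. With the control response within index S521, r was 0.146, the slope 0.105, r and slope in level bin 5 0.896 and 0.834, with 153 control calls and 142 in both. Without libraries under 2000000 counts, r was 0.293, r in level bin 5 0.942 and the major axis slope 0.943, which was 0.935 without libraries 68 and 80. On limma's log2 CPM scale r was 0.462 and the slope 0.428, and without genes with a group at 0 r was 0.379. By DESeq2 94.4% of calls of either and 96.5% of control calls had the same sign in both, at a threshold of 0.01 the first share was 99.6%, and with 10 bins r in the highest was 0.976. Why these values moved was not tested. With an unstimulated control library left out, the rerun filter kept 9580 to 9604 genes. Leaving out each library gave r of 0.255 to 0.345, slopes of 0.219 to 0.327, r of 0.937 to 0.953 and slopes of 0.832 to 0.908 in level bin 5, major axis slopes of 0.835 to 0.941, 95.9% to 99.2% of calls with the same sign, 197 to 256 genes called in both, and 0 to 2 interaction calls, Ckap4 and Mcl1 without control library 71. A replicate block by the numbers in the column names gave r of 0.313 and 256 genes called in both, 231 of them shared, and the interaction again called 0. Same-numbered libraries had correlations of deviations of 0.0214 to 0.0694, and 8 of 14 libraries correlated best with their own number, a hint from the data only, so the samples were not treated as pairs. Each named response was read under each alternative, so that 1 gene can count many times. With a library left out, 132 of these readings were no longer called, 3 were newly called and 2065 kept their status. Over all other alternatives these numbers were 115, 14 and 1472. Depth limits level bins 1 and 2, where a median of 4 to 24 counts per library gave interaction errors of 1.20 log2 units or more.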
